A study of Mus musculus with 6 samples.

Results

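The 42 genes described here encode subunits of the chromatin remodeling complexes of mouse cells, without the subunits found only in PBAF, the SWI/SNF complex that contains PBRM1. They were chosen by symbol, with no measured value in the rule, but earlier results of these data were known. The list held 21 genes of the BAF complexes, 6 of the ISWI complexes, 8 CHD ATPases, 3 ATPases of the INO80 family and 4 other ATPases of the SNF2 family. The deposited table held 54232 genes, and all 42 passed the filter on low counts. RNA-seq was performed on D2 primary oviductal smooth muscle cells from WT mice and from Pbrm1 cKO mice, with 3 libraries in each group, where D2 is day 2 of pregnancy. The females of both groups were 8 to 12 weeks old and had been mated with stud males. In both groups minced oviducts were digested with a mixture of dispase, trypsin and collagenase, and the cells were filtered, plated for 4 h and kept for a further 2 h in fresh medium before RNA was extracted. The labels call the controls WT, whereas the study's supplement names Pbrm1 fl/fl mice as the controls for its oviductal smooth muscle cells. For the uterus, the study made Pbrm1 cKO mice with a cre driven from the progesterone receptor locus, which is active in cells that express that receptor; the labels name no cre for the oviduct. Whether each library represents 1 animal or several pooled animals is not stated in the labels, so the p-values measure the spread between libraries, which may be technical.

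Chromatin remodelers are protein complexes built around an ATPase of the SNF2 family, which uses ATP to slide, evict or exchange nucleosomes. BAF complexes open chromatin at enhancers and promoters and share their ATPase and core subunits with PBAF, ISWI complexes space nucleosomes evenly, several CHD proteins work in repression or in transcription elongation, and the INO80 family exchanges histone variants. Many subunits have paralogs that occupy the same position in alternative assemblies, and the choice of paralog differs between cell types; in smooth muscle, the BAF ATPase SMARCA4 is known as a coactivator of contractile genes.

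The start sites of the 42 genes were compared for short motifs, since 11 of the genes were lower in the cKO cells. RefSeq sequences (GRCm38.p6) of the 250 bases before the start site were matched for 33 of the 42 genes, and each motif was searched on both strands. A word of the E2F family (TTTCCCGC, TTTGGCGC, TTTCGCGC or TTTGCCGC) lay in 2 of the 33 sequences (6.06%) and in 1.86% of all 32851 promoters. These were the promoters of Hells and Smarcd1, and both genes were lower in cKO. Of the 11 lower genes, 8 had a promoter in the table (all but Baz1a, Chd1 and Ss18), and 6 of these 8 did not hold the word. The E2F word is printed in capitals, and its last base lies 55 bases before the RefSeq start of Hells and 124 bases before that of Smarcd1. The deposited table starts these genes 75 and 158 bases farther upstream, so by its gene models both words lie inside the gene. The promoters of Smarcc1 and Smarcc2 are printed beside them because these paralogs changed in opposite directions; neither holds any of the words searched. All 4 are on the plus strand and read 5′ to 3′, at chr19:38930740-38930989 (Hells), chr15:99702037-99702286 (Smarcd1), chr9:110131774-110132023 (Smarcc1) and chr10:128458986-128459235 (Smarcc2). The RefSeq start of Smarcc1 lies 14316 bases from the start of the gene in the deposited table. That distance was 22409 bases for Smarcd3, 5340 for Smarcd2, 2248 for Actl6a and 1206 for Baz2a, and at most 742 for the other genes searched.
Hells: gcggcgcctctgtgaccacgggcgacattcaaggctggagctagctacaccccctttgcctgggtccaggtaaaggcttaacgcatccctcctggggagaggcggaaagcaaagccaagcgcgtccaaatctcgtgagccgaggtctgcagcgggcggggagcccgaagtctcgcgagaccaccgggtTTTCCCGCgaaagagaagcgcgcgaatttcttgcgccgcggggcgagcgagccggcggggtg
Smarcd1: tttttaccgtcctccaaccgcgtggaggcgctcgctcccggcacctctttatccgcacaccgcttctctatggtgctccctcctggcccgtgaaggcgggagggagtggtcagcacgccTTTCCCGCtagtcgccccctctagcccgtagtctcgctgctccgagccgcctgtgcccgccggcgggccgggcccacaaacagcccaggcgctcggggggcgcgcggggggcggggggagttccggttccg
Smarcc1: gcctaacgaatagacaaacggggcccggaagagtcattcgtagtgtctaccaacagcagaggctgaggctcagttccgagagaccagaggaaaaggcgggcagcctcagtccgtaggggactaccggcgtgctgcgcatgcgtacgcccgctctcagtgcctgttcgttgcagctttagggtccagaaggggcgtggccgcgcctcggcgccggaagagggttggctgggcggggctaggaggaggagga
Smarcc2: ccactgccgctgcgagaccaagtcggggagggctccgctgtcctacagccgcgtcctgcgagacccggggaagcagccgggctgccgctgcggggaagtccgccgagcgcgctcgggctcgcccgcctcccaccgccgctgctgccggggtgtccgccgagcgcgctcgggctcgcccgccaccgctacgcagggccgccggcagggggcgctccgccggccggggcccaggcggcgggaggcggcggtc

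The other words searched were read beside all promoters in the same way. For every word, 1 start site was read for each of the 33 genes, whereas all promoters include every start site, of genes expressed or not. The sets were not matched for base composition, and GC in the 33 windows ran from 43.2% to 80.8%. CCAAT, the NF-Y box, lay in 10 of the 33 promoters (30.3%) against 33.8% of all promoters. GGGGCGGGG, an SP site, lay in 6 (18.2%) against 10.4%. By call, CCAAT lay in 2 of 8 lower, 1 of 4 higher and 7 of 21 uncalled genes with a promoter. GGGGCGGGG lay in 2, 0 and 4 of these. TTTGAA, the core of the cell cycle element known as CHR, lay in 1 (3.03%) against 16.0%. No promoter of the 33 held CCGGAAGT (ETS) or TGACGTCA (CRE), which lay in 2.88% and 1.55% of all promoters. The longer NRF1 and YY1 words were also in none of the 33, and in 0.782% and 0.207% of all promoters. No word of 1 motif is contained in a word of another. A match describes the letters of the window, not a bound site. Whether any word, the E2F word included, is tied to the calls was not tested.

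The targeted gene was examined first. Pbrm1 measured 170.1, 183 and 172 CPM (counts divided by the scaled size of each library) in WT replicates 1, 2 and 3 and at 43.5, 50.7 and 42.7 CPM in cKO replicates 1, 2 and 3, with a log2 fold change of -1.94 (SE 0.064, edgeR adjusted p = 9.13e-11). Libraries held 15390818 to 18947947 counts, and a count of 3, taken as the floor, was 0.159 to 0.193 CPM. The 10 smooth muscle markers all passed the filter and summed to 3654 to 3735 CPM in WT and 4609 to 5211 CPM in cKO, with 6 higher and Smtn lower. Markers of other cells were also present. Fibroblast markers (7 higher and 1 lower of 10) summed to 5136 to 5860 CPM in WT and 7219 to 7676 CPM in cKO. Leukocyte markers summed to 702 to 751 and 1001 to 1090 CPM, with the 10 of 12 that passed the filter all higher and Cd3e and Cd79a at or near 0. Epithelial markers (6 of 10 higher) summed to 1048 to 1141 and 1248 to 1395 CPM, endothelial markers (3 higher and 1 lower of 10) to 384 to 408 and 332 to 343 CPM, and neuronal markers (2 higher and 1 lower of 6, with Rbfox3 at 0) to 10.8 to 13.3 and 13.5 to 17.2 CPM. Proliferation genes summed to 2303 to 2369 CPM in WT and 1827 to 1955 CPM in cKO, and 13 of 15 were lower (all but Mcm6 and Pcna), and their median difference was -0.51 on the log2 scale. Of the endothelial markers Kdr alone was lower, and the other 9 summed to 210 to 222 CPM in WT and 221 to 250.2 CPM in cKO. In bulk RNA, fewer cells of a type and less RNA per cell cannot be told apart. The part of these shifts in the results that follow was not tested.

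Of the 42 remodeler genes, 16 passed the test, 5 higher and 11 lower in cKO (edgeR quasi-likelihood test, Benjamini-Hochberg adjusted p under 0.05 over the 15376 genes tested). That was 38.1% of them, a share no higher than the 43.7% of all genes tested. Over all genes the calls were nearly even, with 21.9% higher and 21.8% lower. The median log2 fold change was -0.082 over the 42 genes and 0.0016 over all genes. Changes were small: the median size of a called log2 fold change was 0.32 among the 42 genes and 0.40 among all genes. The ranges of the WT and cKO libraries did not overlap for 16 of the 42 genes, beside 53.5% of all genes. By family, 9 of 21 BAF genes passed (5 higher, 4 lower), 4 of 6 ISWI genes (all lower), 2 of 8 CHD ATPases (both lower), 0 of 3 ATPases of the INO80 family and 1 of 4 other ATPases (lower).

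**Figure D1:**
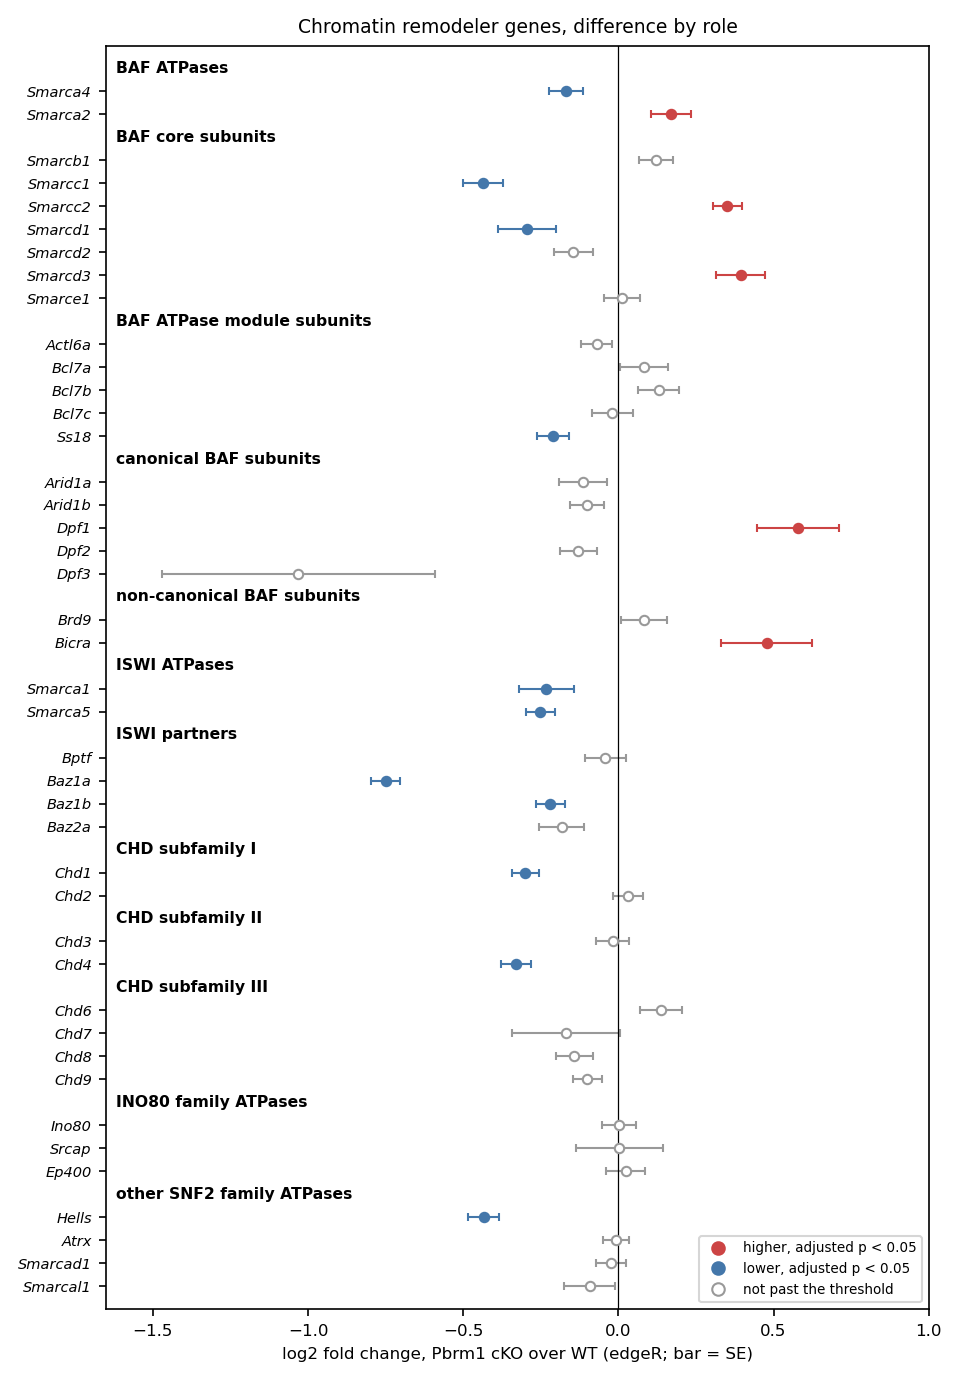
The log2 fold change of each of the 42 remodeler genes in cKO over WT is plotted on the horizontal axis with its SE as a bar, grouped by role; filled red points were higher and filled blue points lower at an adjusted p under 0.05, and open points did not pass. Baz1a lies farthest to the left of the called genes at -0.75, Dpf1 farthest to the right at 0.58, and the called BAF genes lie on both sides of 0.

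**Figure D2:**
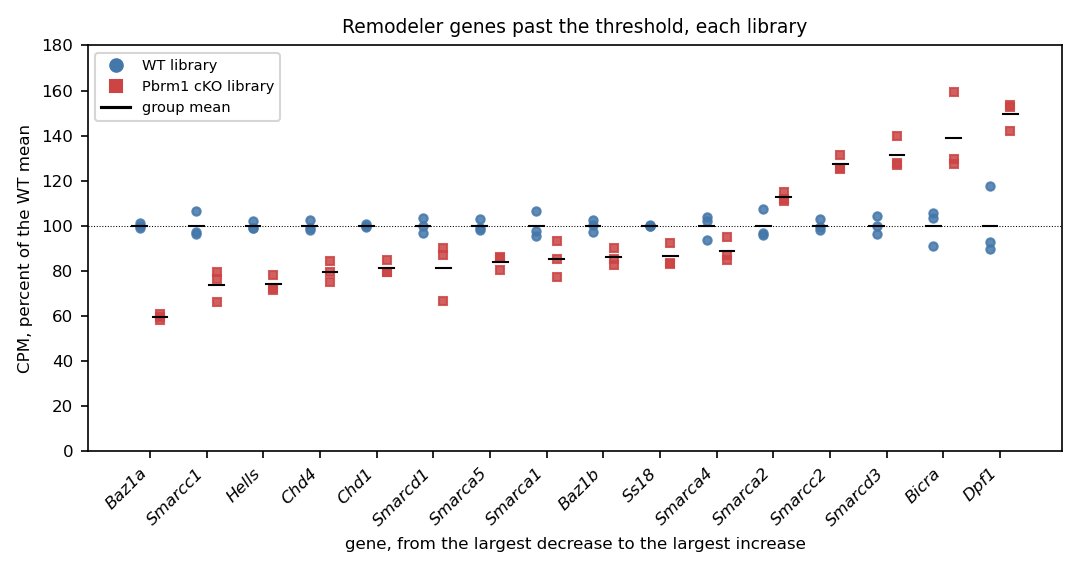
Each of the 16 genes past the threshold is plotted by library as CPM in percent of the WT mean, with blue circles for WT, red squares for cKO and black bars for group means (n = 3). The cKO squares lie apart from the WT circles for every gene except Smarca4, from 59.4% of the WT mean for Baz1a to 149% for Dpf1.

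The ATPases of the BAF complexes differed slightly and in opposite directions. Smarca4, the main ATPase (GRCm38 chromosome 9, 21616169 to 21704230), measured 271, 266 and 244 CPM in WT and 227, 247 and 220.4 CPM in cKO, a difference of -0.17 on the log2 scale (SE 0.054, edgeR adjusted p = 0.0229). WT replicate 3 was below cKO replicate 2, so the groups overlapped. The call was lost without WT replicate 1, WT replicate 2, cKO replicate 1 or cKO replicate 3 (edgeR adjusted p = 0.097, 0.0851, 0.0868 and 0.0814). Smarca2, the alternative ATPase (chromosome 19, 26605050 to 26778322), was at 31.3, 35.0 and 31.6 CPM in WT and 37.5, 36.5 and 36.2 CPM in cKO (log2 fold change 0.17, SE 0.064, edgeR adjusted p = 0.0456). All cKO libraries were above all WT libraries, but the call ended in 8 of 15 alternatives, including DESeq2 (adjusted p = 0.127) and the fits without WT replicate 1, WT replicate 3, cKO replicate 1 or cKO replicate 3 (edgeR adjusted p = 0.159, 0.145, 0.125 and 0.0667).

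The Smarcc paralogs, scaffold subunits around which BAF complexes assemble as dimers, changed in opposite directions and by more than the ATPases. Smarcc1 (ENSMUSG00000032481.17; chromosome 9, 110117708 to 110240178) was at 165, 181 and 164 CPM in WT and 129, 135 and 112 CPM in cKO. Every cKO library was below every WT library, and the cKO mean was 73.8% of the WT mean (log2 fold change -0.44, SE 0.064, edgeR adjusted p = 0.000108). Smarcc2 (ENSMUSG00000025369.15; chromosome 10, 128459248 to 128490482) was at 84.8, 81.8 and 80.7 CPM in WT and 108, 103 and 104 CPM in cKO. Here every cKO library was above every WT library, at 128% of the WT mean (log2 fold change 0.35, SE 0.047, edgeR adjusted p = 4.58e-05). Both calls held in all 15 alternative settings.

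Of the Smarcd paralogs, which link the complexes to sequence-specific transcription factors, 1 was lower and 1 was higher. Smarcd1 (chromosome 15, 99702129 to 99713991) was at 34.7, 32.5 and 33.5 CPM in WT and 29.2, 30.2 and 22.3 CPM in cKO (log2 fold change -0.30, SE 0.094, edgeR adjusted p = 0.0203). The groups did not overlap, and cKO replicate 3 was the lowest library; without it the log2 fold change was -0.18 (edgeR adjusted p = 0.0632), and the call was also lost without WT replicate 1 or WT replicate 3 (edgeR adjusted p = 0.0689 and 0.0563). Smarcd3, known for its role in heart and skeletal muscle (chromosome 5, 24590818 to 24624411), was at 15.2, 14.6 and 15.9 CPM in WT and 19.3, 19.5 and 21.3 CPM in cKO. It was higher in every cKO library, at 132% of the WT mean (log2 fold change 0.39, SE 0.08, edgeR adjusted p = 0.00129). Smarcd2 did not pass (WT 78.2 ± 2.91 CPM, cKO 70.6 ± 6.41 CPM, mean ± SD, n = 3, log2 fold change -0.15, edgeR adjusted p = 0.0796), although it did without cKO replicate 2 or with no filter (edgeR adjusted p = 0.0043 and 0.0402). The remaining core subunits did not pass. Smarcb1, a nucleosome-contacting subunit, had means of 82.8 ± 5.08 and 90.2 ± 3.24 CPM (log2 fold change 0.12, edgeR adjusted p = 0.0862), and passed without WT replicate 2 or cKO replicate 2 (edgeR adjusted p = 0.0343 and 0.044). Smarce1, an HMG-box subunit, was at 51.0 ± 3.10 and 51.4 ± 0.474 CPM (log2 fold change 0.011, edgeR adjusted p = 0.897).

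The module that binds the BAF ATPase held 1 called gene of 5. Ss18, the subunit fused to SSX in synovial sarcoma (chromosome 18, 14624198 to 14682914), was at 106, 106 and 106 CPM in WT and 88.8, 98.0 and 88.2 CPM in cKO. All cKO libraries were lower, and the WT libraries lay within 1 CPM of each other (log2 fold change -0.21, SE 0.051, edgeR adjusted p = 0.00422). The other 4 had log2 fold changes from -0.071 to 0.13 and overlapping groups. Actl6a, the actin-related subunit of dividing cells, had means of 74.4 ± 2.04 and 70.9 ± 2.33 CPM in the groups (SD, n = 3; edgeR adjusted p = 0.277). Bcl7a, Bcl7b and Bcl7c had edgeR adjusted p-values of 0.418, 0.13 and 0.839. Actl6b, the neuronal counterpart of Actl6a, was at 0 in all 6 libraries.

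Among the subunits that mark canonical and non-canonical BAF, 2 of 7 genes were called, Dpf1 and Bicra, both higher and both at low levels. Dpf1, a PHD-finger subunit known from neuronal BAF complexes (chromosome 7, 29303951 to 29318243), was at 4.55, 4.70 and 5.97 CPM in WT and 7.76, 7.21 and 7.78 CPM in cKO. Every cKO library was higher, at 149% of the WT mean (log2 fold change 0.58, SE 0.13, edgeR adjusted p = 0.00285). Bicra, a scaffold of non-canonical BAF (chromosome 7, 15970672 to 16047921), was at 4.14, 4.06 and 3.57 CPM in WT and 5.00, 6.26 and 5.08 CPM in cKO (log2 fold change 0.48, SE 0.15, edgeR adjusted p = 0.0172). The groups did not overlap, cKO replicate 2 was the highest, and the call was lost without it or without WT replicate 3 (edgeR adjusted p = 0.0675 in both) and with DESeq2 (adjusted p = 0.0615). The other 5 did not pass. Arid1a and Arid1b, the alternative large subunits of canonical BAF, had log2 fold changes of -0.11 and -0.10 (edgeR adjusted p = 0.253 and 0.162); Arid1a passed without cKO replicate 2 (log2 fold change -0.21, edgeR adjusted p = 0.0153). Dpf2, the widely expressed Dpf paralog, had a log2 fold change of -0.13 (edgeR adjusted p = 0.0945) and Brd9, the bromodomain subunit of non-canonical BAF, had one of 0.082 (edgeR adjusted p = 0.403). Dpf3, a paralog known from heart and skeletal muscle, was close to the floor at 0.768, 0.855 and 0.878 CPM in WT and 0.337, 0.159 and 0.772 CPM in cKO, and its log2 fold change of -1.03 had an SE of 0.44 (edgeR adjusted p = 0.0733). It passed without cKO replicate 3 (edgeR adjusted p = 0.00959), and cKO replicate 2 lay at about the floor.

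To compare paralogs with each other, CPM were divided by the exon length of each gene, and each paralog was given as its share of the summed level of its family in each library, as a description with no test. Smarcc1 made up 58.0, 61.0 and 59.0% of the Smarcc sum in the WT libraries and 45.8, 48.0 and 43.4% in the cKO libraries, so on this scale Smarcc2 was the larger part in each cKO library and the smaller part in each WT library. The change of order rests on the division by exon length: in CPM, Smarcc1 was above Smarcc2 in all 6 libraries. The Smarcc sum itself was 36.5 ± 1.19 CPM per kb in WT and 34.9 ± 1.69 CPM per kb in cKO (SD, n = 3), with overlapping groups. Smarca2 held 5.39% ± 0.359 of the ATPase sum in WT and 6.73% ± 0.392 in cKO. Smarcd3 held 8.98% ± 0.144 of the Smarcd sum in WT and 13.0% ± 1.76 in cKO. Dpf1 held 9.66% ± 0.827 of the Dpf sum in WT and 15.1% ± 0.345 in cKO. In a pair, the rise of a paralog's share and the fall of the other's are the same change. In the Smarca4/Smarca2, Smarcd and Dpf families, as in the Smarcc family, a paralog that was not the main one in WT gained share. Its share was larger in every cKO library than in any WT library. The remaining minor paralogs of the Smarcd and Dpf families went the other way, with a smaller share in every cKO library. Smarcd1 held 25.2% ± 0.583 in WT and 22.2% ± 2.06 in cKO, and Dpf3 held 2.03% ± 0.073 and 1.06% ± 0.794. The Dpf3 separation was narrow and rests on values close to the floor. Its share was 1.95% in cKO replicate 3 and 1.98% in WT replicate 1, and its CPM ranges overlapped. The sums of the Smarca4/Smarca2, Smarcd and Dpf families overlapped between groups. Arid1a held 43.7% ± 0.488 of the Arid1 sum in WT and 43.3% ± 1.97 in cKO, with overlap. Bcl7b held the most of the Bcl7 sum, and its share overlapped too.

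**Figure D3:**
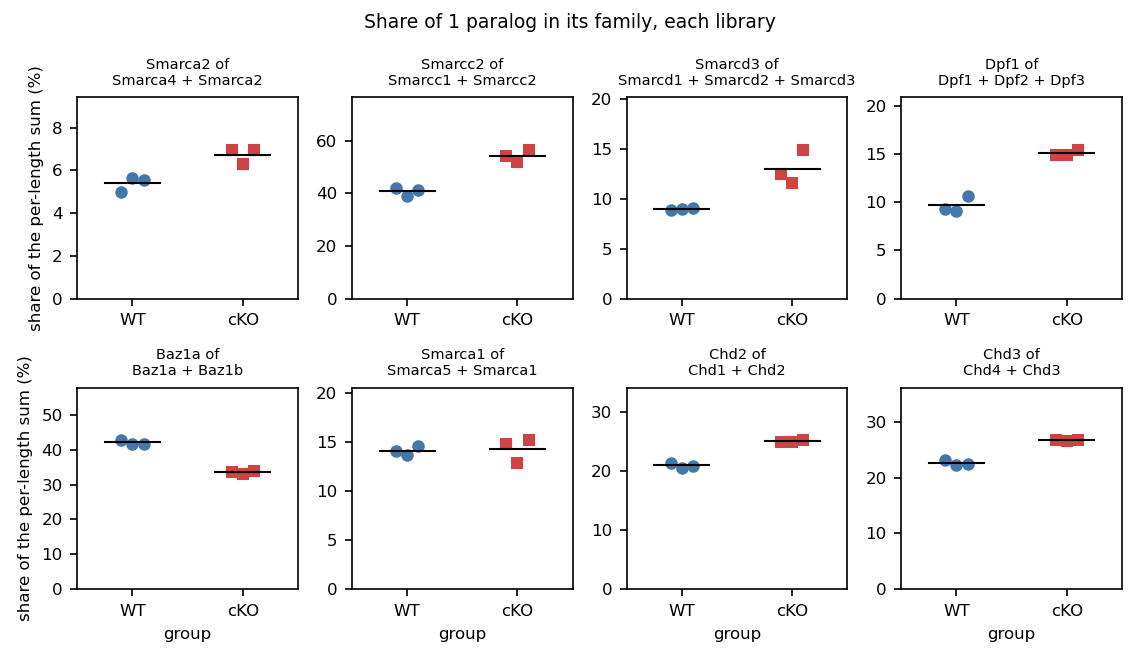
For 8 families, the share of 1 paralog in the summed CPM per kb of its family is plotted in percent for each library, with blue circles for WT, red squares for cKO and black bars for group means (n = 3); each axis starts at 0. The groups are apart in all panels except that of Smarca1, whose mean share was 14.1% in WT and 14.3% in cKO. The panels are a selection of families and paralogs. No Arid1 or Bcl7 paralog is plotted, and the shares of all of these overlapped between groups. For single genes in CPM, the WT and cKO libraries lay apart for 53.5% of all genes tested.

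Of the ISWI genes, both ATPases and 2 of 4 partner subunits were lower. Smarca5, the main ISWI ATPase (chromosome 8, 80698507 to 80739497), was at 144, 146 and 151 CPM in WT and 118, 126 and 126 CPM in cKO (log2 fold change -0.25, SE 0.046, edgeR adjusted p = 0.000599), and the groups did not overlap. Smarca1, its paralog (chromosome X, 47809368 to 47892974), was at 18.6, 18.2 and 20.3 CPM in WT and 16.3, 14.7 and 17.8 CPM in cKO (log2 fold change -0.23, SE 0.089, edgeR adjusted p = 0.0478). The groups did not overlap, but the Smarca1 call ended with DESeq2 (adjusted p = 0.106), with library size as the only scaling (edgeR adjusted p = 0.0696) and without WT replicate 1, 2 or 3 or cKO replicate 1 or 2 (edgeR adjusted p = 0.0779, 0.0612, 0.17, 0.103 and 0.154).

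Baz1a, the partner of SMARCA5 in the nucleosome-spacing complexes ACF and CHRAC, changed more than any other called gene of the 42. Baz1a (ENSMUSG00000035021.13; chromosome 12, 54892989 to 55014348) was at 112, 113 and 111 CPM in WT and 66.8, 68.0 and 65.1 CPM in cKO. The libraries of each group lay within 3 CPM of each other, and the cKO mean was 59.4% of the WT mean (log2 fold change -0.75, SE 0.046, edgeR adjusted p = 3.9e-08), and the log2 fold change ranged from -0.76 to -0.73 in the alternatives. Baz1b, the partner in the WICH complex (chromosome 5, 135187264 to 135246129), was at 287, 302 and 295 CPM in WT and 252, 265 and 243 CPM in cKO. It was lower in every cKO library by a smaller step (log2 fold change -0.22, SE 0.046, edgeR adjusted p = 0.00167). The share of Baz1a in the Baz1 sum per length was 42.1% ± 0.571 in WT and 33.5% ± 0.514 in cKO. Chrac1, a histone-fold subunit of CHRAC, was higher at 21.4, 18.2 and 21.7 CPM in WT and 24.1, 23.8 and 27.3 CPM in cKO (log2 fold change 0.30, SE 0.087, edgeR adjusted p = 0.0135), a call lost without WT replicate 2 or cKO replicate 3 (edgeR adjusted p = 0.0782 and 0.0574). Bptf, the large subunit of NURF, and Baz2a, the partner in the nucleolar complex NoRC, did not pass (log2 fold changes -0.042 and -0.18, edgeR adjusted p = 0.642 and 0.0548). Baz2a did pass with the replicate number as a block (edgeR adjusted p = 0.0204) and without cKO replicate 2 (edgeR adjusted p = 0.011). It also passed with upper quartile scaling or no filter (edgeR adjusted p = 0.0431 and 0.0222).

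Of the CHD ATPases, the more abundant paralog of subfamilies I and II was lower while the other did not pass. Chd1, which acts in elongation (chromosome 17, 15704967 to 15772610), was at 179, 181 and 178 CPM in WT and 142, 152 and 142 CPM in cKO (log2 fold change -0.30, SE 0.044, edgeR adjusted p = 0.000109). Chd4, the main ATPase of the repressive NuRD complex (chromosome 6, 125095981 to 125130591), was at 525, 507 and 502 CPM in WT and 405, 430.4 and 384 CPM in cKO (log2 fold change -0.33, SE 0.049, edgeR adjusted p = 0.000101). The cKO libraries were below the WT libraries for both genes. Chd2 was at 80.0, 76.9 and 77.2 CPM in WT and 77.7, 82.6 and 78.9 CPM in cKO (log2 fold change 0.032, edgeR adjusted p = 0.63). Chd3, the other NuRD ATPase, was at 168, 154 and 153 CPM in WT and 156, 164 and 147 CPM in cKO (log2 fold change -0.018, edgeR adjusted p = 0.811). Both overlapped between groups. The share of Chd1 in its pair went from 79.0% ± 0.417 to 74.9% ± 0.172 and that of Chd4 from 77.3% ± 0.521 to 73.3% ± 0.095 (SD, n = 3). A stretch of 18.4% of the Chd2 exon bases is shared with another gene on the same strand, and reads there were left out of the counts.

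None of the 4 genes of CHD subfamily III passed. Chd6 was at 37.6, 33.8 and 36.7 CPM in WT and 40.9, 41.3 and 36.5 CPM in cKO (log2 fold change 0.14, edgeR adjusted p = 0.122); cKO replicate 3 lay among the WT libraries. Without that library it passed (edgeR adjusted p = 0.0423). Chd7, the gene of CHARGE syndrome, was at 10.5, 12.7 and 7.32 CPM in WT and 10.3, 9.50 and 7.27 CPM in cKO (log2 fold change -0.17, edgeR adjusted p = 0.469), with a spread within each group wider than the difference. Chd8, which represses beta-catenin targets, was at 97.3, 105 and 91.1 CPM in WT and 88.6, 93.6 and 84.0 CPM in cKO (log2 fold change -0.14, edgeR adjusted p = 0.0718). It passed with the replicate block or no filter (edgeR adjusted p = 0.0232 and 0.0349) and without WT replicate 3 or cKO replicate 2 (edgeR adjusted p = 0.0318 and 0.023). Chd9 was at 96.4, 93.3 and 93.6 CPM in WT and 89.0, 90.3 and 84.6 CPM in cKO (log2 fold change -0.10, edgeR adjusted p = 0.101), and its groups did not overlap although it did not pass.

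The ATPases of the INO80 family stood at nearly the same level in both groups. Ino80, the ATPase of the INO80 complex, was at 53.2, 53.1 and 53.6 CPM in WT and 53.9, 55.9 and 50.3 CPM in cKO (log2 fold change 0.0029, SE 0.055, edgeR adjusted p = 0.972). Ep400, the ATPase of the TIP60 complex, was at 104, 104 and 94.4 CPM in WT and 103, 110.3 and 93.9 CPM in cKO (log2 fold change 0.023, SE 0.062, edgeR adjusted p = 0.793). For both, the WT range lay inside the cKO range. Srcap, which like EP400 deposits a histone variant, was at 7.86, 5.83 and 6.79 CPM in WT and 6.41, 7.85 and 6.11 CPM in cKO (log2 fold change 0.0034, SE 0.14, edgeR adjusted p = 0.986). Its level is a low estimate, since 61.7% of its exon bases are shared with an overlapping gene on the same strand and such reads were not counted.

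Of the other ATPases, Hells was lower. Hells, which is needed for DNA methylation of repeats and is known to be high in dividing cells (ENSMUSG00000025001.11; chromosome 19, 38930915 to 38971051), was at 90.7, 93.5 and 90.6 CPM in WT and 65.3, 71.6 and 66.3 CPM in cKO. Every cKO library was below every WT library, at 74.0% of the WT mean (log2 fold change -0.43, SE 0.051, edgeR adjusted p = 1.46e-05), and the call held in all 15 alternatives. Beside it, the summed proliferation genes were lower in cKO, as given above, and their part in the Hells result was not tested. Atrx, which places a histone variant at repeats, was at 186, 191 and 188 CPM in WT and 188, 187 and 187 CPM in cKO (log2 fold change -0.0072, SE 0.041, edgeR adjusted p = 0.907). Smarcad1, which keeps silent chromatin through replication, was at 78.5, 77.7 and 83.2 CPM in WT and 77.8, 78.5 and 79.1 CPM in cKO (log2 fold change -0.024, edgeR adjusted p = 0.717). Smarcal1, a DNA-annealing enzyme of stalled replication forks, was at 22.2, 21.5 and 24.9 CPM in WT and 19.7, 22.8 and 21.9 CPM in cKO (log2 fold change -0.093, edgeR adjusted p = 0.394). The groups overlapped for all 3.

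On the scale of CPM per kb of exon, the 42 genes spanned from 57.2 for Chd4 to 0.149 for Dpf3 over the 6 libraries, with a median of 7.41 beside 4.80 for all genes tested. Smarca4 came second at 37.9 CPM per kb (40.2 ± 2.19 in WT and 35.7 ± 2.16 in cKO, SD, n = 3). Ss18, Smarcd2, Baz1b, Smarcc1, Actl6a, Chd1 and Chd3 followed between 21.9 and 18.6 CPM per kb, which is closer together than the spread of several of them over the libraries. In WT, Smarcc1 (21.7 ± 1.20 CPM per kb) stood above Smarcc2 (14.8 ± 0.379), and in cKO below it (16.0 and 18.9 CPM per kb), whereas in CPM it stayed above it in both groups. At the low end were Chd7 at 0.697, Bicra at 0.590 and Srcap at 0.431 CPM per kb. Counted over the exon bases it does not share, Srcap was at 1.13 CPM per kb. Of the 42 genes, 14 of the 37 with a mean of 10 CPM or more passed (37.8%), beside 51.8% of all genes at that level.

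**Figure D4:**
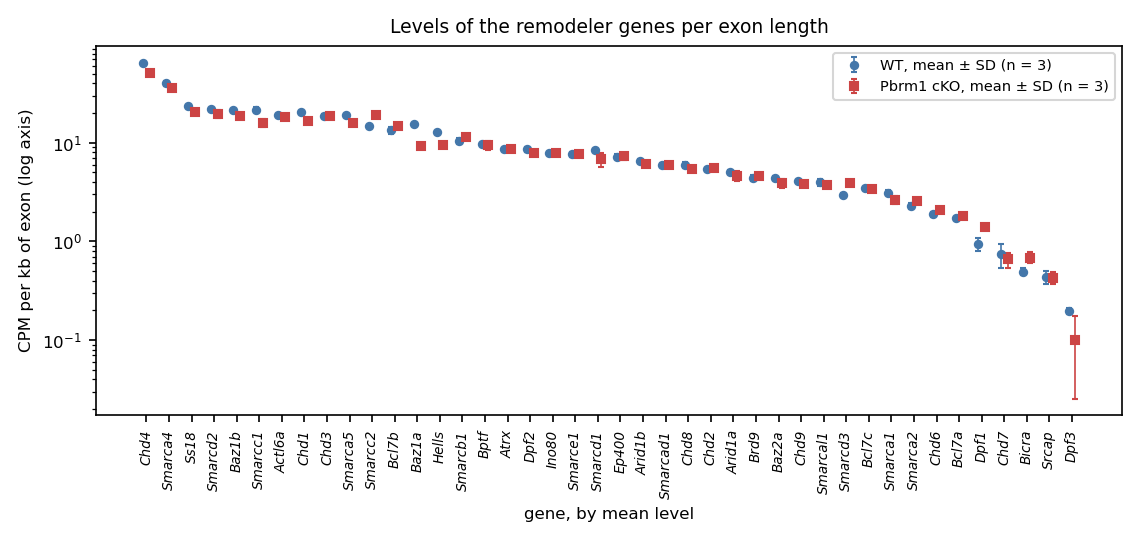
The mean level of each of the 42 genes in CPM per kb of exon is plotted on a log axis, with the SD over 3 libraries as a bar, for WT (blue circles) and cKO (red squares), ordered by the mean over the 6 libraries. Chd4 and Smarca4 stand above the rest, Dpf3 lies lowest with the widest bar, and Smarcc1 and Smarcc2 exchange their order between groups on this scale but not in CPM.

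The other subunits of the same complexes were taken from a list of 49 genes, of which 48 passed the filter. Of these, 14 passed the test (29.2%, beside 43.7% of all genes), 2 higher and 12 lower, and their median difference was -0.089 on the log2 scale. Without WT replicate 2 the count was 7. NuRD, the complex of CHD4, had 6 of 12 called (5 lower and Mbd2 higher), and the INO80 complex had 4 of 13 (all lower). The genes listed under SRCAP and TIP60 had 0 of 14, with Ruvbl1 and Ruvbl2, which these complexes share with INO80, counted under INO80. Other ISWI and CHD proteins had 3 of 7 (Chrac1 higher, and Baz2b and Pole3 lower). The Mbd2 call was lost with DESeq2 (adjusted p = 0.103), with upper quartile scaling or no filter (edgeR adjusted p = 0.0519 and 0.107) and without WT replicate 1, WT replicate 2 or cKO replicate 1 (edgeR adjusted p = 0.104, 0.12 and 0.143). Mta1, 1 of the 5 lower NuRD genes, lost its call without WT replicate 1, WT replicate 2, cKO replicate 1 or cKO replicate 3 (edgeR adjusted p = 0.108, 0.0883, 0.0849 and 0.0782). Hdac2, another of these 5, kept its call in all 15 alternatives (log2 fold change -0.19, edgeR adjusted p = 0.00574), and its groups did not overlap. Pole3 lost it with DESeq2 (adjusted p = 0.0506) and without WT replicate 2, WT replicate 3 or cKO replicate 1 (edgeR adjusted p = 0.0558, 0.0675 and 0.0773).

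The deubiquitinase gene Uchl5, whose product binds INO80, changed most among the called genes of this list, at 32.6, 38.1 and 34.5 CPM in WT and 23.1, 25.9 and 25.0 CPM in cKO (log2 fold change -0.51, SE 0.076, edgeR adjusted p = 0.000112). Ino80e was at 82.1, 76.4 and 77.4 CPM in WT and 61.4, 64.1 and 61.2 CPM in cKO (log2 fold change -0.34, SE 0.051, edgeR adjusted p = 0.000131). The groups did not overlap for either. Ruvbl1 and Ruvbl2, helicase-like ATPases shared by the INO80, SRCAP and TIP60 complexes, had log2 fold changes of -0.20 and -0.24 (edgeR adjusted p = 0.0109 and 0.0013); Ruvbl1 lost its call without WT replicate 2 or cKO replicate 1 (edgeR adjusted p = 0.0564 and 0.0511). In NuRD, Mta2 was at 188, 187 and 192 CPM in WT and 155, 166 and 146 CPM in cKO (log2 fold change -0.28, SE 0.051, edgeR adjusted p = 0.000602), and Gatad2a had a log2 fold change of -0.26 (edgeR adjusted p = 0.00543). Mbd3, the methyl-binding-domain subunit, had a log2 fold change of -0.21 (edgeR adjusted p = 0.0434), which was lost with DESeq2 (adjusted p = 0.0557), with library size as the only scaling (edgeR adjusted p = 0.0564) and without WT replicate 2, cKO replicate 1 or cKO replicate 3 (edgeR adjusted p = 0.253, 0.0726 and 0.141). Baz2b, a paralog of Baz2a, had a log2 fold change of -0.26 (edgeR adjusted p = 0.00456). Bicral, the paralog of Bicra, was at 18.5, 20.3 and 16.6 CPM in WT and 15.9, 16.1 and 13.3 CPM in cKO (log2 fold change -0.29, SE 0.10, edgeR adjusted p = 0.0305), the opposite direction to Bicra. The Bicral call was lost with DESeq2 (adjusted p = 0.0521) and without WT replicate 1, WT replicate 2 or cKO replicate 3 (edgeR adjusted p = 0.0702, 0.148 and 0.117).

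**Figure D5:**
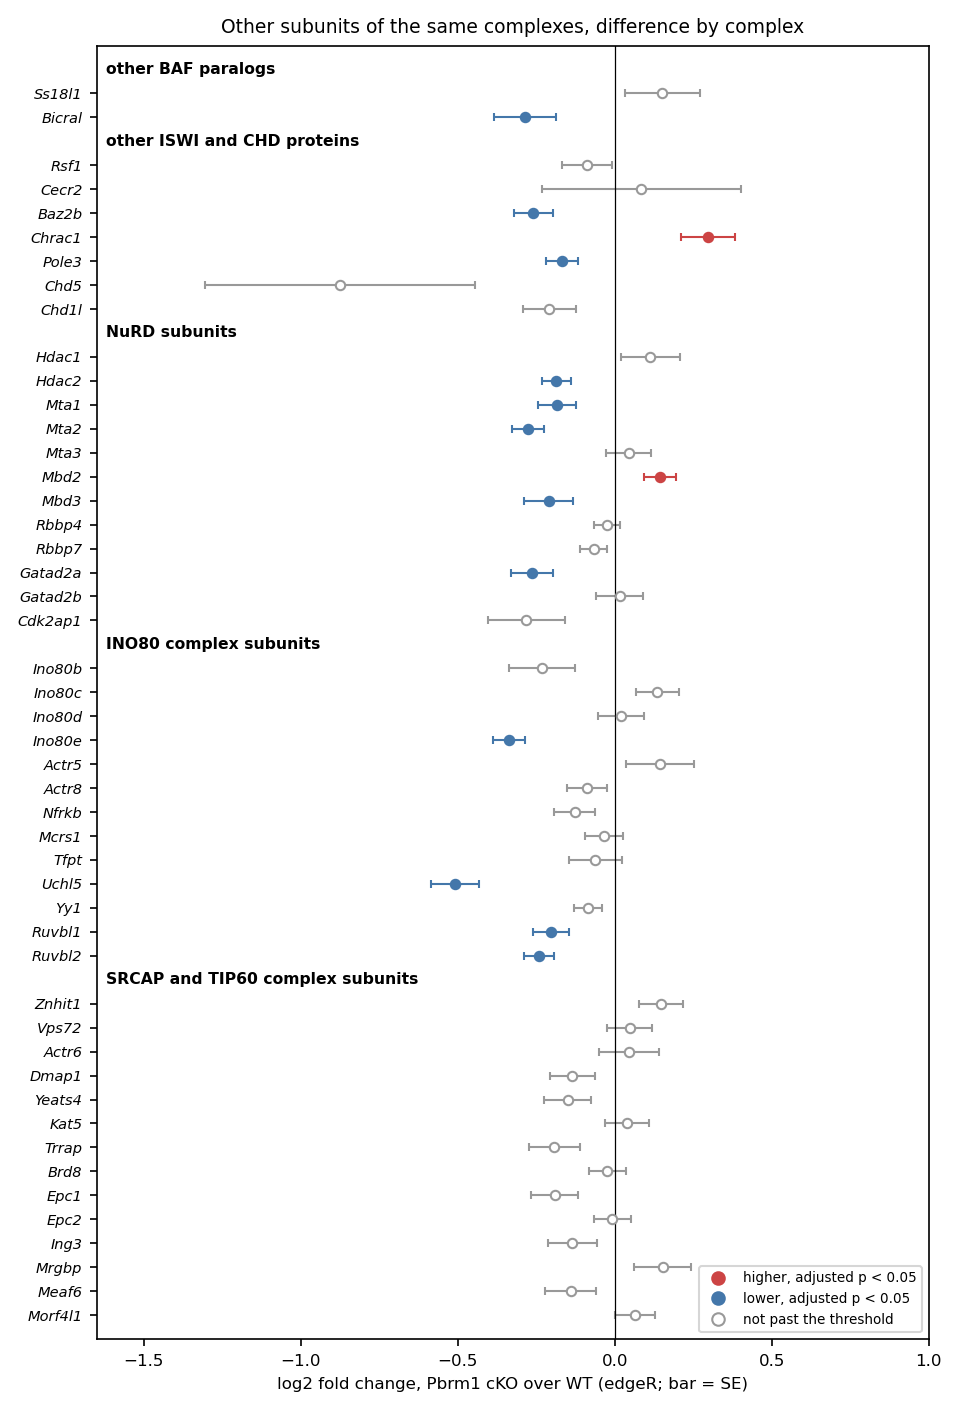
The log2 fold change of the 48 tested partner subunits in cKO over WT is plotted with its SE as a bar, grouped by complex, with filled blue points lower, filled red points higher and open points not past the threshold. The called points lie between -0.51 for Uchl5 and 0.30 for Chrac1, and no point in the group named for SRCAP and TIP60 is filled. Ruvbl1 and Ruvbl2, which these complexes share with INO80, are plotted under INO80.

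Of the subunits that PBRM1 joins in PBAF, Brd7 was lower (log2 fold change -0.24, edgeR adjusted p = 0.00554), while Arid2 and Phf10 did not pass (log2 fold changes 0.10 and -0.0069, edgeR adjusted p = 0.105 and 0.924).

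The libraries of the cKO group were not alike over the 42 genes. cKO replicate 2 was the highest of the cKO libraries for 27 of the 42 genes (64.3%, beside 35.3% of all genes tested) and cKO replicate 3 the lowest for 22 (52.4%, beside 33.8%). The calls moved with single libraries, as 19 of the 42 genes passed without cKO replicate 2, 15 without cKO replicate 3 and 12 without WT replicate 1. Pseudogene copies of the genes bear on some values. A pseudogene transcript matched 13 of the 42 genes over at least 100 bases at 90% identity or more, with 6 copies for Smarca5, 4 for Smarce1 and 1 for Ss18. Among the other called genes, Baz1a (423 bases at 99.8% identity), Smarcc1 (1008 bases at 95.2%) and Hells (104 bases at 93.3%) also had a match. Reads from the matching stretches were uncertain in all 13 genes.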

How the data were processed

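RNA-seq libraries of D2 primary oviductal smooth muscle cells, 3 WT and 3 Pbrm1 cKO, were compared. The authors deposited 1 table of read counts per gene (unit: raw counts) with 1 column per library. Exons of GENCODE M18 were counted with featureCounts 1.6.4 in reverse-stranded mode per the file headers, with default options otherwise, under which multi-mapping reads and reads overlapping more than 1 gene are not counted. The submitters' processing notes name cutadapt, HISAT2 and GRCm38.p5. Genes with close sequence copies can thus be undercounted. All columns were assigned to a sample. Symbols came from GENCODE M21 for 54079 of the 54232 genes (99.7%).

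Counts were tested with edgeR 4.0.16 in R 4.3.3 by its two-sided quasi-likelihood test after TMM scaling and the filterByExpr filter, and p-values were adjusted by Benjamini-Hochberg over 15376 genes with a threshold of 0.05. Standard errors were the size of the log2 fold change over the square root of F. Reads had no molecular identifiers, and the floor of 3 counts reflects counting error alone. DESeq2 1.42.0, the tool named in the study, limma-voom (limma 3.58.1), other scalings and filters, a threshold of 0.01, a replicate block and fits without 1 library were alternatives. Levels per kb and paralog shares used the exon lengths of the table. Pseudogene copies were searched with BLAST 2.17.0 in the GENCODE M21 transcripts.

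Each of the 42 genes was accounted for, with values in every library for each ATPase and each called gene; of the 49 partner genes, up to 10 called genes with the largest change were named. Dpf3 values, Mbd2, Mta1, Pole3 and Hdac2 were added after their values were seen. The genes, lists and motifs were chosen with earlier results of these data known.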

Additional observations from a re-analysis of the deposited data

How the results depend on the processing

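Member calls ranged from 11 at a threshold of 0.01 and 13 with DESeq2 to 18 with no filter, and from 12 to 19 when 1 library was left out. Of the 629 single-gene values under the alternatives, 560 kept their direction and their side of the threshold, 29 lost the call, 16 gained it and 24 turned direction. The turned values were all of genes that did not pass. The log2 fold change of Smarce1 was -0.00079 with upper quartile scaling. With the same scaling and with no filter, Ino80 was at -0.0090 and -0.0069 and Srcap at -0.0085 and -0.0062, and Srcap was at -0.0035 with DESeq2. With library size as the only scaling, Atrx was at 0.0086 and Phf10 at 0.0089. Leaving out 1 library gave Smarce1 -0.021 to 0.060, Bptf -0.11 to 0.042, Chd3 -0.053 to 0.025, Chd7 -0.36 to 0.026, Ino80 -0.027 to 0.042, Srcap -0.11 to 0.11, Ep400 -0.030 to 0.080, Atrx -0.019 to 0.0014, Smarcad1 -0.045 to 0.0045 and Phf10 -0.030 to 0.012. Genes that did not pass but did under 1 or more alternatives were Smarcb1, Smarcd2, Arid1a, Dpf3 (limma-voom adjusted p = 0.0386), Baz2a, Chd6 and Chd8. Partner calls fell from 14 to 7 at a threshold of 0.01 and ranged from 7 to 19 when 1 library was left out, with 7 without WT replicate 2. Over all genes, calls ranged from 4665 at that threshold to 6925 with no filter and from 5532 to 7054 when 1 library was left out. The cause of these differences was not tested.

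The labels link libraries with the same replicate number only by that number. Their deviations from the group means correlated at -0.0221, 0.0346 and 0.0897 for replicates 1, 2 and 3. Pairs with unlike numbers correlated at -0.0744 to 0.0426. Whether same-numbered libraries shared a batch was not tested. With the replicate block, 18 of the 42 genes, 16 partner genes and 6908 genes in all were called, with Baz2a and Chd8 added among the 42. Without division by exon length, the cKO minus WT difference in paralog share was 2.57 points for Smarca2 (1.34 per length), -6.72 points for Baz1a (-8.63) and -5.07 points for Chd1 (-4.07). With unshared exon lengths, a setting added after the data were seen, the level per kb was 1.13 for Srcap, 6.76 for Chd2, 13.1 for Baz1a and 18.04 for Smarca5. Depth limits Dpf3, Bicra, Dpf1 and Srcap, the genes with the fewest counts.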
